A study of Mus musculus with 12 samples.

Results

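Genes of the lens capsule and the extracellular matrix were followed in lenses of wild type (WT) and Epha2-mutant mice at postnatal day 7 (P7). Members were chosen by symbol: all numbered collagen and laminin chains, nidogens, fibrillins, emilins, fibulins, the Adamts, Mmp and Timp families, integrin chains with a number, and Fn1, Hspg2, Agrn, Sparc, Bgn and Dcn. Of 146 protein-coding mouse genes with such a symbol, 52 were listed in the count table of 8676 genes and are counted here. Every gene in that table exceeds 3 counts per 1000000 reads (CPM) in at least 6 of the 12 libraries, so a gene switched on in a single genotype of 3 libraries would not be listed, and the other members were not analysed here. By role the 52 were 18 capsule genes, 6 other collagens, 5 genes of elastic fibers and the zonule, 2 interstitial proteins, 8 integrin chains and 12 proteases and inhibitors. The last, Itgb1bp1, matched by its symbol only: it encodes a cytoplasmic protein that binds the tail of integrin beta 1 and is no integrin.

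The capsule is the thick basement membrane that encloses the lens. Lens epithelial cells and young fiber cells secrete it, and it is built on independent networks of collagen IV and laminin that nidogen and the heparan sulfate proteoglycans perlecan (Hspg2) and agrin (Agrn) link together. Zonular fibers, which are made mainly of fibrillin, attach to the capsule at the equator and suspend the lens. Integrins anchor epithelial and fiber cells to the capsule, and proteases of the Adamts and Mmp families, held in check by Timp inhibitors, remodel the matrix.

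EPHA2 is a receptor tyrosine kinase of lens epithelial and fiber cells. The 4 groups were WT, Epha2-Q722 mice, homozygous for a CRISPR knock-in that puts glutamine in place of arginine at a single codon of exon 13, Epha2-indel722 mice, homozygous for an insertion-deletion in exon 13 from another founder of the same editing, and Epha2-null mice, in which a pMCIneo vector is inserted in exon 5. All were on the C57BL/6J background, and each group had 3 libraries of poly-A RNA from 6 pooled lenses each. Library totals ranged from 14543069 to 20340688 reads counted to genes. Epha2 transcript was read at 51.4 to 63.1 normalized CPM in WT, 44.99 to 54.4 for Epha2-Q722, 19.97 to 21.6 for Epha2-indel722 and 30.6 to 36.9 for Epha2-null libraries, so the null allele still yields counted transcript. All 10 fiber markers and all 10 epithelial markers sought were listed, as were 2 of 12 endothelial markers (summed 8.32 to 12.4 normalized CPM), whereas 0 macrophage, retinal, pigmented, corneal or red blood cell markers were. Normalized CPM are counts scaled by library total and TMM factor. A gene passed where edgeR's quasi-likelihood fit of all 12 libraries gave it a Benjamini-Hochberg adjusted p no higher than 0.05. With whole lenses, fewer cells of a type and less RNA per cell cannot be told apart.

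In WT lenses, the capsule genes included the most abundant transcripts of the set. Per kb of exon, Col4a1 had 346 normalized CPM, Sparc 322, Col4a2 319 and Nid1 193, as means of 3 libraries. Hspg2 followed with 57.2, and the integrin chains Itgb5 and Itgb1 with 47.03 and 45.3. WT libraries of Col4a1, Sparc and Col4a2 overlapped in level, as did those of Hspg2, Itgb5 and Itgb1, so the genes of each trio have no order. At the other end, Col26a1, Fn1, Col27a1 and Fbn1 had 0.189, 0.238, 0.253 and 0.305 normalized CPM per kb, with overlapping libraries. Together the 52 genes took 0.861% to 1.05% of the counts of WT libraries and 1.02% to 1.27% of those of the mutant libraries. These are shares of counts before TMM scaling. With it, the summed capsule genes had 8520 to 10255 normalized CPM in WT and 8446 to 10362 in mutant libraries, with overlap.

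**Figure D1:**
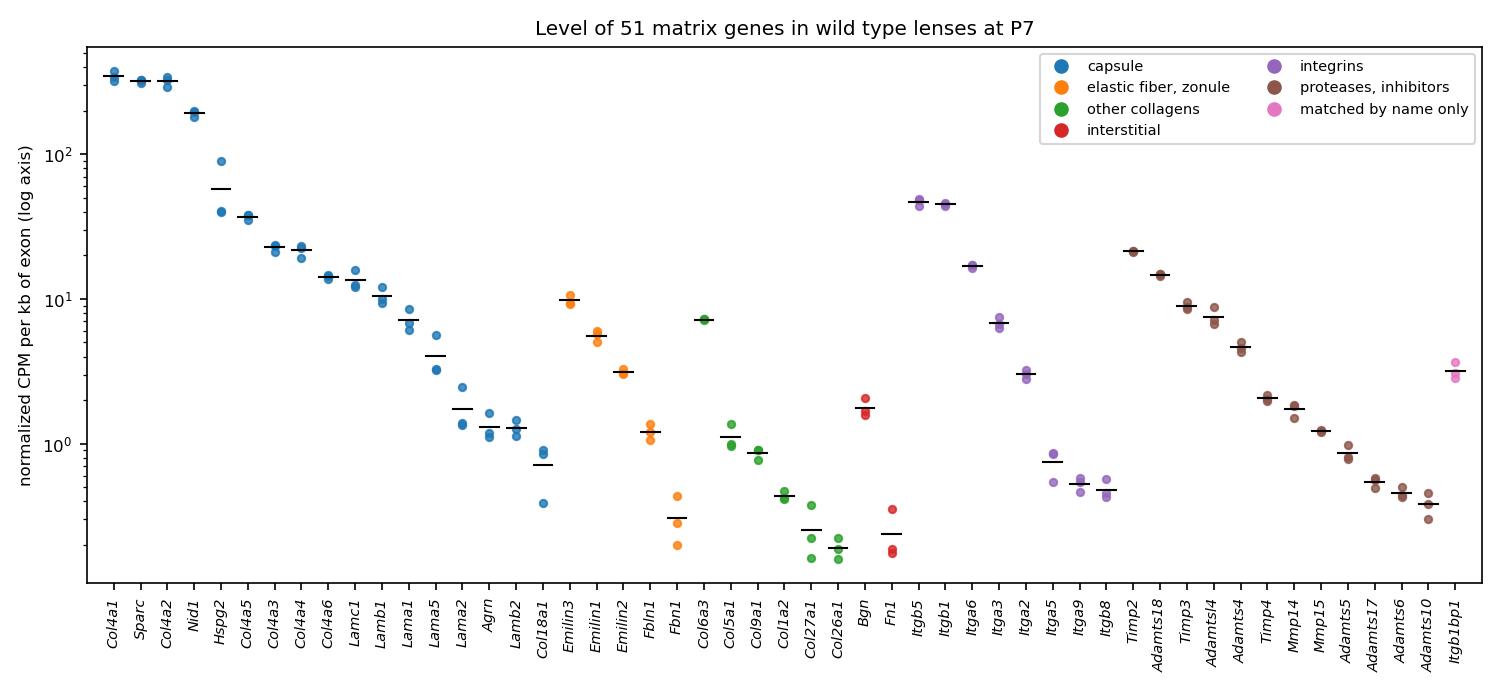
Levels of 51 of the 52 genes in WT lenses, in normalized CPM per kb of exon on a log axis, grouped by role, with a point for each of 3 libraries and a line at their mean. Col4a1, Sparc, Col4a2 and Nid1 lie between 193 and 346, and Col26a1 has the lowest mean, at 0.189.

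Against WT, 11 members passed the test in Epha2-Q722 lenses, 16 in Epha2-indel722 and 14 in Epha2-null lenses. For Epha2-Q722, 5 rose and 6 fell, or 21.2% of members against 6.37% of all 8676 genes (2.75% higher and 3.62% lower). Epha2-indel722 lenses had 7 rises and 9 falls, 30.8% of members against 13.1% of all genes (6.73% higher and 6.37% lower). Epha2-null lenses had 7 of each, 26.9% of members against 11.2% of all genes (4.98% higher and 6.22% lower). Median log2 fold changes of the 52 were 0.03, -0.04 and -0.06 in the same order, beside 0.0048, -0.0016 and 0.011 for all genes, so members that changed did so in both directions. Changes of at least 2-fold were seen for 4, 1 and 3 members, against 0.807%, 1.01% and 0.841% of all genes. The 2-fold count was 2 for Epha2-Q722 without WT replicate 3, 3 for Epha2-indel722 without WT replicate 2, and 1 for Epha2-null without Epha2-null replicate 3. For 5 members, Col26a1, Itga5, Itga9 and Col18a1 among them, 1 genotype had 0 libraries over 3 deposited CPM, so each was listed only through genotypes where it was higher, and the listing itself favors a difference. With such genes left out, a count chosen after the data were seen, 10, 12 and 12 of 47 members passed (21.3%, 25.5% and 25.5%, against 5.99%, 12.6% and 10.9% of 8497 genes). Of these members, 3, 0 and 2 passed by at least 2-fold (6.38%, 0% and 4.26% of 47, against 0.459%, 0.647% and 0.624% of 8497 genes).

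Of the 52 genes, 26 passed in no genotype, 14 in 1, 9 in 2 and 3 in all 3 genotypes. The same count was not made over all genes, so these numbers only describe the members. Those past the test in all 3 include Col26a1, which was listed only through mutant libraries. Emilin2 and Itga2 fell in every mutant genotype, and Emilin1 fell in Epha2-Q722 but rose in Epha2-null lenses. The 3 comparisons share the WT libraries. Libraries of mutant and WT lenses did not overlap for 16 members with Epha2-Q722, 24 with Epha2-indel722 and 19 with Epha2-null, where 22.4%, 32% and 28.6% of all genes were separated in this way. Scaling by library totals alone, which raises the median of all genes by 0.15, 0.17 and 0.28 on the log2 scale, gave 11 higher and 3 lower members for Epha2-Q722, 12 and 3 for Epha2-indel722, and 20 and 3 for Epha2-null lenses. Directions below are therefore relative to the bulk of genes. With a fitted trend of counts over coding length taken out of each library, an alternative chosen after the data were seen, 5 were higher and 5 lower for Epha2-Q722, 9 and 13 for Epha2-indel722, and 7 and 13 for Epha2-null. The count for Epha2-Q722 was 7 without Epha2-Q722 replicate 1 and 7 without WT replicate 3.

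**Figure D2:**
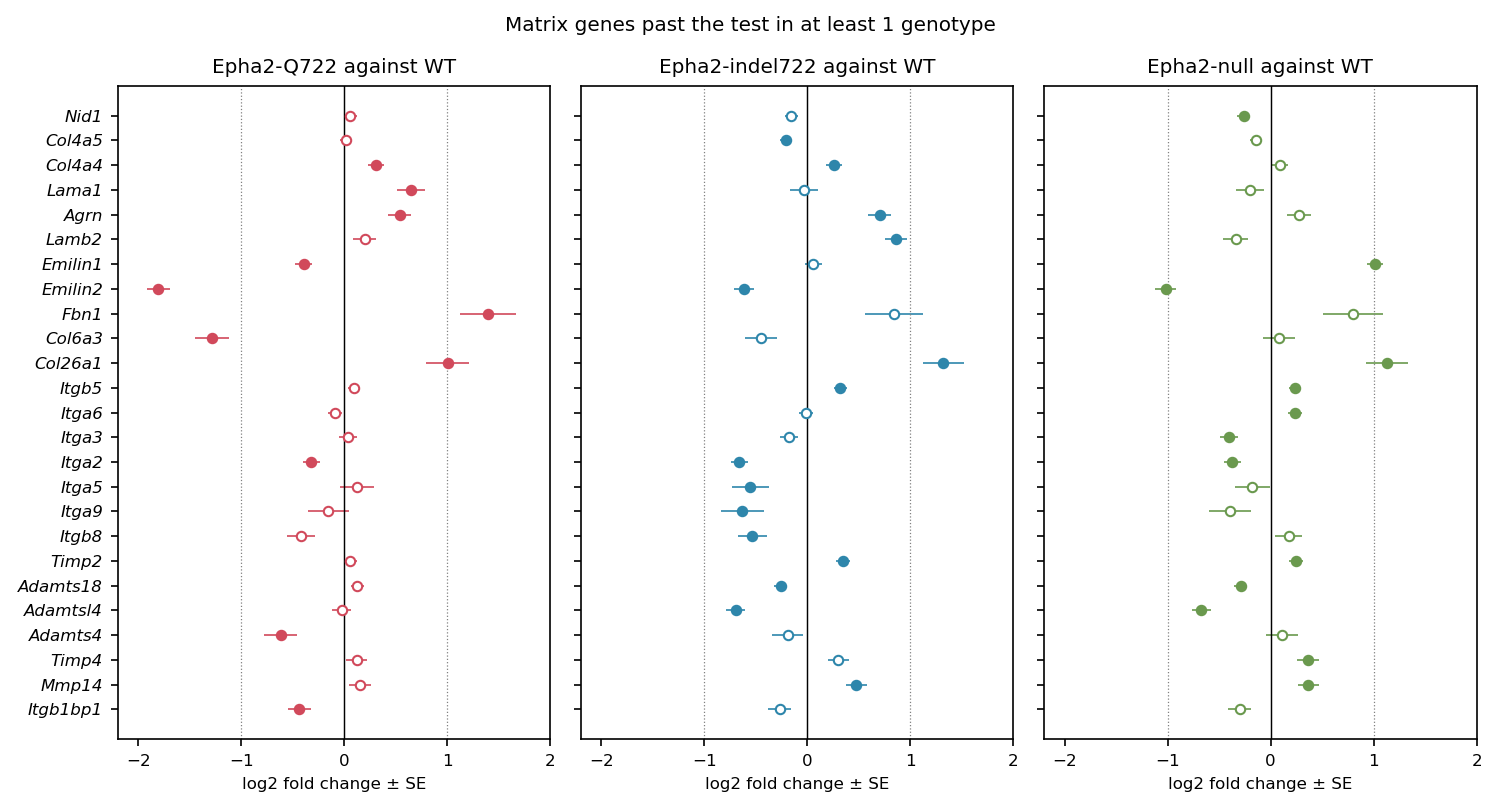
Log2 fold change against WT (horizontal axis, bars are standard errors, dotted lines mark 2-fold) of 25 of the 26 genes past the test in at least 1 genotype, filled where the gene passed and open where it did not. Emilin2 and Itga2 lie left of 0 in all 3 panels, Col26a1, listed only through mutant libraries, lies right of it, and Emilin1 changes side between Epha2-Q722 (-0.39) and Epha2-null (1.02).

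All 6 collagen IV chains were listed, in 3 head-to-head pairs on the genome (GRCm38, mm10). Collagen IV trimers of alpha 1 and alpha 2 chains are found in all basement membranes, and trimers with alpha 3 to alpha 6 chains in a few, the lens capsule among them. Col4a1 (chr8:11198423-11312826, minus strand) and Col4a2 (chr8:11312805-11449287, plus strand) start 21 bases apart and overlap by their first exons. Col4a3 (plus strand) and Col4a4 (chr1:82448423-82586849, minus strand) start 72 bases apart, and Col4a5 (plus) and Col4a6 (minus) on chromosome X 1309 bases apart. The promoter windows of Col4a1 (chr8:11312777-11313076, minus strand) and Col4a4 (chr1:82586800-82587099, minus strand) are shown because each spans the shared start of a pair. Each runs from 250 bases before to 50 bases after the start in RefSeq (GRCm38.p6), and capitals mark GC boxes (GGGCGG or CCGCCC) and CCAAT boxes (CCAAT or ATTGG).
Col4a1: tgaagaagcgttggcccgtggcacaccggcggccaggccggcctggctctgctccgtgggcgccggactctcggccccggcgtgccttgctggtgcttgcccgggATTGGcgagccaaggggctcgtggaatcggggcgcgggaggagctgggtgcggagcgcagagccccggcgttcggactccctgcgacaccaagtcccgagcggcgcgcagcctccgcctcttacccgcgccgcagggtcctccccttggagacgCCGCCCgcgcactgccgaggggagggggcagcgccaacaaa
Col4a4: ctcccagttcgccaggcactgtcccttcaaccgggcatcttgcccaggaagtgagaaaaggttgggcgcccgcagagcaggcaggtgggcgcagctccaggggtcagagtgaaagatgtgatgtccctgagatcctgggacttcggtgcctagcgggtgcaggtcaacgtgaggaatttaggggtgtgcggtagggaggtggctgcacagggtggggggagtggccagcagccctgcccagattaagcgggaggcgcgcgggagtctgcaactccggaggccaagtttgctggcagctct
The Col4a1 window held 1 GC box and 1 CCAAT box and was 74% G or C, and the Col4a4 window held neither and was 63.3% G or C. GC boxes occur in 35.7% of 32851 RefSeq windows of this length and CCAAT boxes in 37.4%, on either strand, and 27 and 13 of the 40 members with a window held them. No member's window held TATAAA on either strand (0 of 40), which 13.6% of all windows hold.

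Col4a1 and Col4a2 did not pass in any genotype. Col4a1 ranged from 2385 to 2797 normalized CPM in WT libraries and from 2476 to 2876 in the 9 mutant libraries, and Col4a2 from 1939 to 2250.1 and from 1999 to 2458, with overlap for both. Their log2 fold changes were 0.13, 0.09 and 0.05 for Col4a1 and 0.11, 0.03 and 0.07 for Col4a2 with Epha2-Q722, Epha2-indel722 and Epha2-null. Under library totals Col4a1 passed in all 3 (0.27, 0.25 and 0.32, adjusted p of 0.047, 0.044 and 0.0073), where the median gene also shifted upward. Col4a2 passed there with Epha2-null (0.34, adjusted p = 0.0077). Per kb, the ratio of Col4a2 to Col4a1 stayed between 0.848 and 0.964 in all 12 libraries.

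Col4a4 rose in the lenses with either edited allele. It was read at 239.8, 245 and 204 normalized CPM in WT, 301, 269.8 and 284 in Epha2-Q722, 269.9, 267 and 286 in Epha2-indel722, and 225, 231 and 278 in Epha2-null libraries. Every Epha2-Q722 and Epha2-indel722 library lay above every WT library, while Epha2-null libraries overlapped WT. Its log2 fold change was 0.31 ± 0.08 (SE, adjusted p = 0.020) with Epha2-Q722, 0.26 ± 0.08 (adjusted p = 0.038) with Epha2-indel722 and 0.09 ± 0.08 (adjusted p = 0.53) with Epha2-null. Its partner Col4a3 ranged from 211 to 236 in WT and from 211 to 302 in mutant libraries and did not pass. Under library totals both passed with Epha2-null (0.36 for Col4a4 and 0.40 for Col4a3, adjusted p of 0.0050 and 0.0078). Per kb, the ratio of Col4a4 to Col4a3 was 0.907 to 0.991 in WT, 1.15 to 1.24 for Epha2-Q722, 1.07 to 1.121 for Epha2-indel722 and 0.865 to 0.978 for Epha2-null libraries. The ratio separated each edited allele from WT, at the smallest p that an exact two-sided permutation test of 3 against 3 libraries allows (p = 0.1). The call of Col4a4 was lost for Epha2-Q722 without Epha2-Q722 replicate 1 or 3 or WT replicate 3 (adjusted p of 0.051 to 0.14). For Epha2-indel722 it was lost without WT replicate 1 or 3, without any 1 Epha2-indel722 library, or with genes under 10 CPM left out (adjusted p of 0.054 to 0.21).

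Col4a5 fell slightly in Epha2-indel722 lenses. It had 254, 255 and 234 normalized CPM in WT, 247, 243 and 264 in Epha2-Q722, 218, 215 and 209.7 in Epha2-indel722, and 218, 224 and 233 in Epha2-null libraries. Epha2-indel722 libraries were the lowest and did not overlap WT, and Epha2-null libraries also lay just below WT. Log2 fold changes were -0.21 ± 0.06 (adjusted p = 0.014) with Epha2-indel722 and -0.14 ± 0.06 (adjusted p = 0.13) with Epha2-null. That call was lost without WT replicate 1 or Epha2-indel722 replicate 2 or 3 (adjusted p of 0.051 to 0.060) and under library totals (log2 fold change of -0.05, adjusted p = 0.70). Col4a6 ranged from 96.6 to 118 across the 12 libraries and did not pass. With the coding-length trend removed, Col4a6 passed as lower with Epha2-indel722 (-0.18, adjusted p = 0.038) and Col4a5 with Epha2-null (-0.19, adjusted p = 0.0087). Mutations of the human alpha 3, alpha 4 and alpha 5 chain genes cause Alport syndrome, in which the capsule can bulge at the front of the lens.

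**Figure D3:**
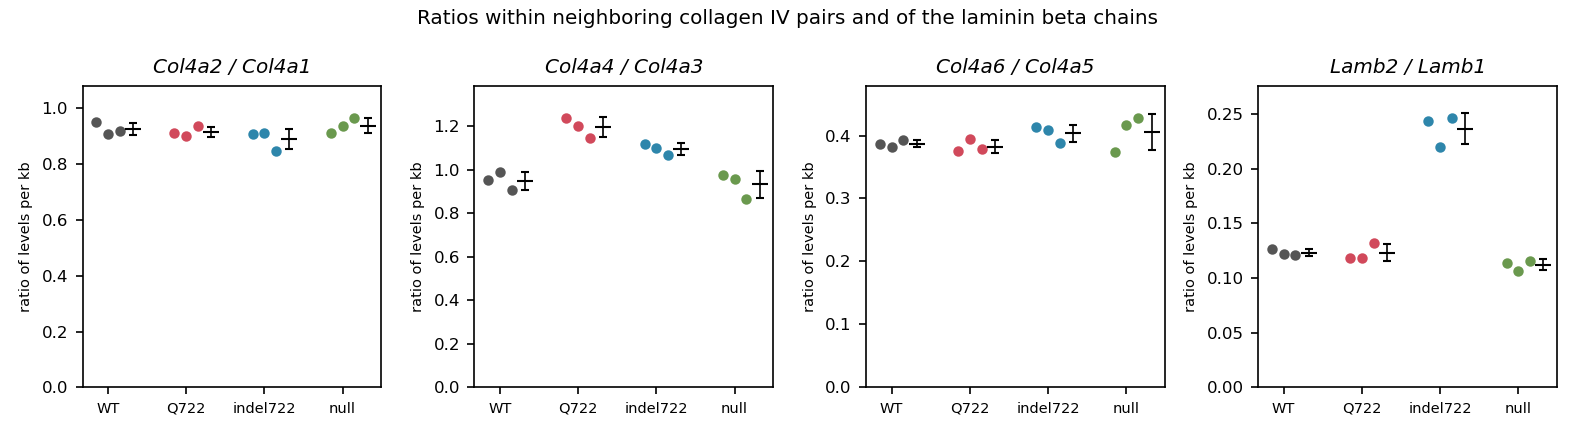
Ratios of levels per kb of exon (vertical axis, from 0) in the 12 libraries, with the mean and SD of 3 libraries beside the points. Col4a2 to Col4a1 stays between 0.848 and 0.964, Col4a4 to Col4a3 is higher in Epha2-Q722 and Epha2-indel722 than in WT, and Lamb2 to Lamb1 is 0.21998 to 0.246 in Epha2-indel722 against 0.121 to 0.127 in WT.

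The capsule proteoglycans Hspg2 and Agrn both lie on chromosome 4 with Epha2. The windows at their starts are shown because both hold a cluster of GC boxes, in capitals, at chr4:137468553-137468852 (plus strand) for Hspg2 and chr4:156197439-156197738 (minus strand) for Agrn.
Hspg2: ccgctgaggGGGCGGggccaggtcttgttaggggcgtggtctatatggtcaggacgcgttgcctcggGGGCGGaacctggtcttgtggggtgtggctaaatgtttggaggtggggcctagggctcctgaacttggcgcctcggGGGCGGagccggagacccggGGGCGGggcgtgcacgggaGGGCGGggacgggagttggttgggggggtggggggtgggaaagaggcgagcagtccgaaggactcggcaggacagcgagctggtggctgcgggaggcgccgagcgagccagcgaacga
Agrn: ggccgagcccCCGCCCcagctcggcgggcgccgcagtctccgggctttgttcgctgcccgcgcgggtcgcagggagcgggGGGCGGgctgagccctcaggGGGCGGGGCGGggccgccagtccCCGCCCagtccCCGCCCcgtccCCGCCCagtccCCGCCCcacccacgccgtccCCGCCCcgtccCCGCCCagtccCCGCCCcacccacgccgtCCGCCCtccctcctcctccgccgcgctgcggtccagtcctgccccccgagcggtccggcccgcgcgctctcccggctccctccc
There were 5 GC boxes in the Hspg2 window and 12 in that of Agrn, counting overlapping matches separately, and 2.71% of all windows hold 5 or more. They were 70.3% and 83.3% G or C, and neither held a CCAAT box (0 matches). A match is a run of letters and was not examined for use as a binding site.

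Agrn rose in both edited genotypes. Its libraries read 10.99, 15.1 and 10.3 normalized CPM in WT, 19.9, 17.1 and 16.2 in Epha2-Q722, 19.3, 21.2 and 18.8 in Epha2-indel722, and 14.7, 15.02 and 14.3 in Epha2-null. Edited libraries were all above WT, and Epha2-null libraries lay within the WT range. On the log2 scale it changed by 0.54 ± 0.11 (adjusted p = 0.0045) with Epha2-Q722 and 0.70 ± 0.11 (adjusted p = 0.00016) with Epha2-indel722, beside 0.27 ± 0.12 (adjusted p = 0.15) for Epha2-null lenses. Calls in both edited genotypes were kept under every alternative run, including each left-out library. Agrn also passed with Epha2-null without WT replicate 2 (adjusted p = 0.0093) and under library totals (log2 fold change of 0.54, adjusted p = 0.0023).

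Hspg2, the most abundant proteoglycan of the set, did not pass in any genotype. It had 574, 1295 and 585 normalized CPM in WT, 1154, 855 and 1272 in Epha2-Q722, 1110.4, 1304 and 1405 in Epha2-indel722, and 752, 997 and 1183 in Epha2-null libraries. WT replicate 2 was more than 2-fold above the other WT libraries and level with the highest mutant libraries, so the groups overlapped. The log2 fold changes were 0.42 ± 0.34, 0.64 ± 0.34 and 0.26 ± 0.34 (adjusted p of 0.60, 0.29 and 0.71). The exact test of edgeR called Hspg2 with Epha2-indel722 (adjusted p = 0.015). Without WT replicate 2 the values were 0.91 ± 0.23, 1.124 ± 0.23 and 0.74 ± 0.23 (adjusted p of 0.071, 0.022 and 0.099), and Epha2-indel722 passed.

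The deviations of Hspg2 had the same sign as the median of other genes with long coding sequences in 10 of 12 libraries. The median log2 deviation of the 58 genes outside the set with a coding sequence of at least 10000 bases was -0.20, 0.14 and -0.31 in WT replicates 1, 2 and 3, where Hspg2 (coding sequence of 13149 bases) deviated by -0.80, 0.37 and -0.77. For Epha2-Q722 the medians were 0.06, -0.19 and 0.29 and Hspg2 deviated by 0.21, -0.22 and 0.35. For Epha2-indel722, where the medians were -0.06, 0.07 and 0.09, Hspg2 deviated further upward, by 0.15, 0.39 and 0.49. For Epha2-null they were -0.11, 0.02 and 0.22 beside -0.41, -0.0031 and 0.24. Members are longer than most genes, with a median coding sequence of 3358.5 bases against 1449. The trend fitted near the coding length of Hspg2 was -0.11, 0.09 and -0.25 in WT replicates 1, 2 and 3. This was smaller than the medians of the long genes, so its removal was only partial for them. With the coding-length trend removed, Hspg2 still did not pass (log2 fold changes of 0.31, 0.57 and 0.16, adjusted p of 0.57, 0.17 and 0.75) and Agrn kept its calls (0.47 and 0.66, adjusted p of 0.0065 and 0.00011).

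**Figure D4:**
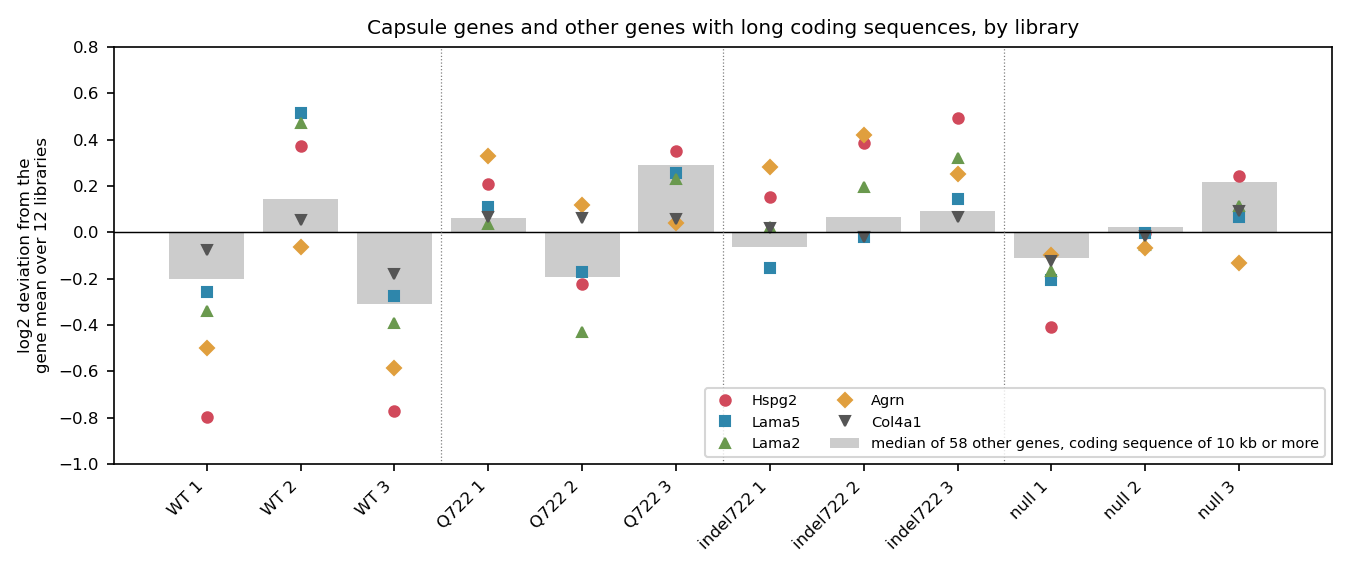
Log2 deviation of each library from a gene's mean over the 12 libraries (vertical axis), with bars for the median of the 58 genes outside the set with coding sequences of at least 10000 bases and points for 5 capsule genes. WT replicates 1 and 3 were low for the long genes (-0.20 and -0.31) and Epha2-Q722 replicate 3 high (0.29), and Hspg2 ranged from -0.80 to 0.49.

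Hspg2 starts 3.832 Mb and Agrn 14.896 Mb from Epha2. Of 257 listed genes that start within 20 Mb of Epha2, 5.84% passed with Epha2-Q722, 24.5% with Epha2-indel722 and 11.3% with Epha2-null, where 6.37%, 13.1% and 11.2% of all genes did. The part of this position in the levels of Agrn was not tested.

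Different laminin chains passed in different genotypes. Lama1, the alpha chain of laminin-111 and one of the main laminin chains of the lens capsule, was read at 59.4, 82.6 and 65.8 normalized CPM in WT, 107, 92.95 and 127 in Epha2-Q722, 63.3, 71.1 and 68.9 in Epha2-indel722, and 55.03, 61.8 and 64.8 in Epha2-null libraries. All Epha2-Q722 libraries lay above all others. Lama1 rose by a log2 fold change of 0.65 ± 0.13 (adjusted p = 0.015) with Epha2-Q722, and the values were -0.03 and -0.20 for Epha2-indel722 and Epha2-null (adjusted p of 0.91 and 0.43). Epha2-indel722 (-0.69 ± 0.13, adjusted p = 0.0070) and Epha2-null (-0.85 ± 0.14, adjusted p = 0.0014) were also lower than Epha2-Q722. Relative to Lamc1 per kb, Lama1 stood at 0.494 to 0.563 in WT and 0.691 to 0.8298 in Epha2-Q722 libraries. The call against WT was lost without WT replicate 3 (adjusted p = 0.066) and in a fit of the 2 groups only (adjusted p = 0.11). Lama1 has a coding sequence of 9249 bases. Its log2 deviations were -0.32, 0.15 and -0.17 in WT replicates 1, 2 and 3, with the signs of the long genes above. For Epha2-Q722 they were 0.52, 0.32 and 0.77, and the call against WT was kept with the coding-length trend removed.

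Lamb2, the beta chain of laminins of synapses, glomeruli and retina, rose in Epha2-indel722 lenses. Its libraries had 7.68, 8.89 and 6.87 normalized CPM in WT, 8.99, 8.06 and 9.905 in Epha2-Q722, 14.1, 14.3 and 14.2 in Epha2-indel722, and 5.84, 6.32 and 6.34 in Epha2-null. Epha2-indel722 libraries were above all others and Epha2-null libraries the lowest. Against WT, the log2 fold change was 0.86 ± 0.10 (adjusted p = 3.3e-06) for Epha2-indel722 and -0.34 ± 0.12 (adjusted p = 0.066) for Epha2-null, which passed without WT replicate 3 (adjusted p = 0.030). Between mutants it was 1.20 ± 0.11 (adjusted p = 2.5e-08) for Epha2-indel722 against Epha2-null, a 2.29995-fold difference. The ratio of Lamb2 to Lamb1 per kb was 0.121 to 0.127 in WT, 0.118 to 0.132 for Epha2-Q722, 0.21998 to 0.246 for Epha2-indel722 and 0.107 to 0.116 for Epha2-null libraries.

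Lamb1, Lamc1, Lama2 and Lama5 did not pass against WT. Lamb1 and Lamc1, the common beta and gamma chains, had 92.6 to 119 and 99.9 to 131 normalized CPM in WT, 111 to 124 and 115 to 131 in Epha2-Q722, 94.1 to 106 and 94.4 to 102 in Epha2-indel722, and 83.5 to 96.7 and 88.4 to 101 in Epha2-null libraries. Both were lower in Epha2-null than in Epha2-Q722 (log2 fold changes of -0.40 and -0.40, adjusted p of 0.0022 and 0.0039) and in Epha2-indel722 than in Epha2-Q722 (-0.27 and -0.36, adjusted p of 0.038 and 0.010). These 4 calls were lost under library totals (adjusted p of 0.051 to 0.14), and that of Lamb1 for Epha2-indel722 also without Epha2-Q722 replicate 1 or 3 or Epha2-indel722 replicate 1 or 3 (adjusted p of 0.10 to 0.14). Against WT, both passed as higher with Epha2-Q722 without WT replicate 2 (adjusted p of 0.018 and 0.015) and as lower with Epha2-null without WT replicate 3 (adjusted p of 0.038 and 0.036). With the coding-length trend removed they also passed for Epha2-null against WT (-0.26 and -0.28, adjusted p of 0.012 and 0.0074), as did Lama1 (-0.29, adjusted p = 0.0087) and Lamb2 (-0.40, adjusted p = 0.013). Lama5 and Lama2, with coding sequences of 11154 and 9354 bases, were highest among WT in replicate 2 (37.4, 64.2 and 36.9 for Lama5 and 22.8, 40.4 and 21.97 for Lama2), and had 38.8 to 53.6 and 21.4 to 36.4 in the mutant libraries, with overlap in each genotype.

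Nid1, which bridges laminin and collagen IV, fell in Epha2-null lenses. Its levels were 1386, 1365 and 1267 normalized CPM in WT, 1369, 1395 and 1421 in Epha2-Q722, 1229, 1236 and 1139 in Epha2-indel722, and 1036, 1116 and 1199 in Epha2-null libraries. Epha2-indel722 and Epha2-null libraries all lay below WT. This was a log2 fold change of -0.26 ± 0.06 (adjusted p = 0.0087) with Epha2-null and -0.16 ± 0.06 (adjusted p = 0.12) with Epha2-indel722. The call was lost without Epha2-null replicate 1 (adjusted p = 0.057), and under library totals its sign turned (log2 fold change of 0.0068, adjusted p = 0.95). Sparc, a collagen-binding glycoprotein abundant in the capsule, ranged from 1036 to 1253 normalized CPM over the 12 libraries and passed in no genotype.

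Col18a1, the collagen of endostatin, varied within groups. It was read at 5.95, 2.71 and 6.303 normalized CPM in WT, 2.07, 2.15 and 5.72 in Epha2-Q722, 2.501, 1.92 and 3.16 in Epha2-indel722, and 3.35, 4.77 and 5.59 in Epha2-null libraries. It passed in no genotype in the quasi-likelihood fit, while the exact test called it with Epha2-indel722 (log2 fold change of -0.99, adjusted p = 0.00082). Col18a1 had 0 Epha2-indel722 libraries over 3 CPM and was listed only through the other genotypes, which favors a lower value there. Rgs5, a pericyte marker, read 5.496, 0.5296 and 5.45 in WT, 0.711, 1.65 and 4.95 in Epha2-Q722, 1.46, 1.68 and 1.61 in Epha2-indel722, and 4.88, 4.66 and 6.34 in Epha2-null libraries, and WT replicate 2 was low and Epha2-Q722 replicate 3 high for both genes within their groups. Of 11 pericyte and smooth muscle markers 4 were listed, with sums of 81.9 to 107 in WT, 82.2 to 94.6 for Epha2-Q722, 89.3 to 114 for Epha2-indel722 and 121 to 213 for Epha2-null libraries. Most of each sum was Acta2, which had 44.7 to 65.9 in WT and 79.7, 89.7 and 165 in Epha2-null libraries. Notch3 had 14.9 to 23.7 and 18.3 to 21.5, and Pdgfrb 13.1 to 14.9 and 15.7 to 24.02. Unlike Rgs5, Acta2, Notch3 and Pdgfrb were lowest of their group in Epha2-Q722 replicate 3, at 48.1, 17.6 and 11.5. In WT replicate 2, Notch3 was the highest of its group (23.7), and Acta2 (44.7) and Pdgfrb (13.06) the lowest. The part of these markers in Col18a1 was not tested.

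Among the genes of elastic fibers and the zonule, Emilin2, Emilin1 and Fbn1 passed in at least 1 genotype. Emilin2, a microfibril-associated glycoprotein (chr17:71252172-71311978, minus strand), had 18.1, 16.8 and 17.03 normalized CPM in WT, 6.21, 4.305 and 4.49 in Epha2-Q722, 10.9, 11.7 and 11.2 in Epha2-indel722, and 8.68, 8.81 and 8.06 in Epha2-null libraries. The 4 genotypes did not overlap, with WT highest and Epha2-Q722 lowest. Emilin2 fell in all 3 genotypes, by a log2 fold change of -1.81 ± 0.11 (adjusted p = 5.1e-11) with Epha2-Q722, -0.62 ± 0.10 (adjusted p = 0.00011) with Epha2-indel722 and -1.02 ± 0.10 (adjusted p = 3.5e-07) with Epha2-null. All 3 differences between mutants passed as well: Epha2-indel722 was 1.19 ± 0.12 (adjusted p = 1.2e-07) above Epha2-Q722, Epha2-null was 0.79 ± 0.12 (adjusted p = 5.3e-05) above Epha2-Q722, and Epha2-indel722 was 0.40 ± 0.11 (adjusted p = 0.015) above Epha2-null. The last was lost without Epha2-indel722 replicate 2 or Epha2-null replicate 3 (adjusted p of 0.052 to 0.076) and under library totals (adjusted p = 0.086).

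Emilin1 (chr5:30913402-30921277, plus strand), which sits between elastin and its microfibrils and binds integrins, moved in opposite directions. It was read at 29.4, 28.1 and 24.8 normalized CPM in WT, 20.4, 22.4 and 19.7 in Epha2-Q722, 29.2, 25.7 and 30.7 in Epha2-indel722, and 54.9, 53.7 and 57.4 in Epha2-null libraries. Epha2-null libraries were well above all others, Epha2-Q722 libraries below all others, and Epha2-indel722 overlapped WT. Log2 fold changes were -0.39 ± 0.08 (adjusted p = 0.0034) with Epha2-Q722, 0.06 ± 0.08 (adjusted p = 0.70) with Epha2-indel722 and 1.02 ± 0.08 (adjusted p = 3.6e-09) with Epha2-null. Epha2-null exceeded Epha2-Q722 by 1.41 ± 0.08 (adjusted p = 4.5e-12) on the log2 scale, a 2.65-fold difference. Per kb, the ratio of Emilin1 to Emilin2 was 1.62 to 1.87 in WT, 3.67 to 5.796 for Epha2-Q722, 2.45 to 3.06 for Epha2-indel722 and 6.795 to 7.94 for Epha2-null libraries. The fall with Epha2-Q722 did not pass under library totals (log2 fold change of -0.25, adjusted p = 0.068), and Emilin3, at 29.8 to 39.9 normalized CPM in all libraries, passed in no genotype. Under library totals Emilin3 passed as higher with Epha2-Q722 (0.28, adjusted p = 0.026) and Epha2-null (0.24, adjusted p = 0.018), which with TMM had -0.03 ± 0.08 (adjusted p = 0.87).

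Fbn1, the fibrillin of zonular fibers and in humans the gene of Marfan syndrome, rose in Epha2-Q722 lenses. Its level was low, at 2.41, 5.296 and 3.41 normalized CPM in WT, 12.4, 7.51 and 10.2 in Epha2-Q722, 5.76, 6.85 and 7.81 in Epha2-indel722, and 5.05, 7.31 and 7.37 in Epha2-null libraries, from 32 to 200 reads. Epha2-Q722 and Epha2-indel722 libraries lay above WT, and Epha2-null libraries overlapped it by 1. Log2 fold changes were 1.39 ± 0.27 (adjusted p = 0.010) for Epha2-Q722, 0.84 ± 0.28 (adjusted p = 0.084) for Epha2-indel722 and 0.80 ± 0.29 (adjusted p = 0.11) for Epha2-null. Fbn1 has a coding sequence of 8619 bases, and with the coding-length trend removed it passed with Epha2-Q722 (1.29, adjusted p = 0.0016) and with Epha2-indel722 (0.77, adjusted p = 0.034). The exact test called it in Epha2-indel722 and Epha2-null as well (adjusted p of 9.4e-05 and 0.0040), and both passed without WT replicate 2 (adjusted p of 0.013 and 0.018). The Epha2-Q722 call was lost without WT replicate 3 (adjusted p = 0.058) and in a fit of the 2 groups only (adjusted p = 0.057). An exon of Fbn1 overlaps one of Gm9913 on the other strand. Fbln1, fibulin-1, had 3.62 to 6.56 normalized CPM and passed in no genotype.

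**Figure D5:**
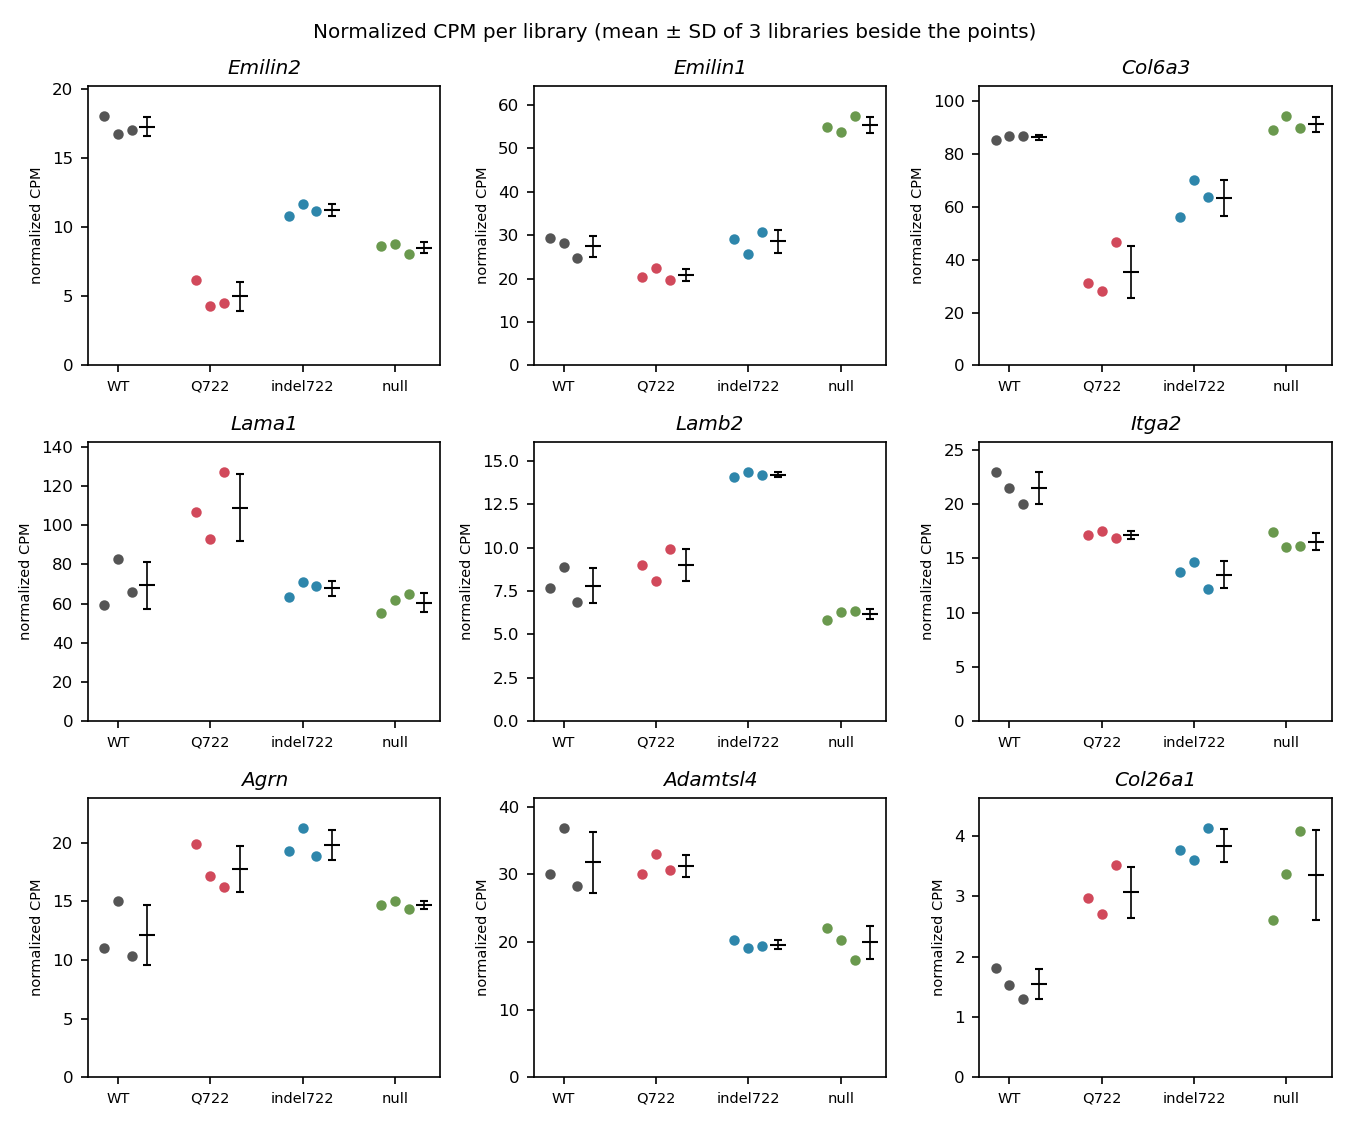
Normalized CPM (vertical axes, from 0) of 9 members in the 12 libraries, with the mean and SD of 3 libraries beside the points. Emilin2 is separated in all 4 genotypes, Emilin1 is highest in Epha2-null (53.7 to 57.4) and lowest in Epha2-Q722 (19.7 to 22.4), and Lamb2 is raised in Epha2-indel722 (14.1 to 14.3).

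Among the other collagens, Col6a3 fell in Epha2-Q722 lenses. Col6a3 (chr1:90765923-90843971, minus strand), the long chain of the beaded microfibrils of collagen VI, had 85.2, 86.7 and 86.9 normalized CPM in WT, 31.3, 28.2 and 46.7 in Epha2-Q722, 56.1, 69.9 and 63.7 in Epha2-indel722, and 89.01, 94.3 and 89.9 in Epha2-null libraries. Epha2-Q722 libraries were lowest, Epha2-indel722 libraries lay between them and WT, and Epha2-null libraries just above WT. On the log2 scale the difference was -1.28 ± 0.16 (adjusted p = 0.0010) for Epha2-Q722, -0.45 ± 0.16 (adjusted p = 0.099) for Epha2-indel722 and 0.08 ± 0.15 (adjusted p = 0.82) for Epha2-null, and Epha2-null exceeded Epha2-Q722 by 1.36 ± 0.16 (adjusted p = 0.00031). Its coding sequence has 9852 bases, and with the coding-length trend removed the fall with Epha2-indel722 passed as well (-0.54, adjusted p = 0.014), as it did in the exact test (adjusted p = 2.2e-07) and in a fit of the 2 groups only (adjusted p = 1.1e-05).

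Col26a1, a short collagen with the EMI domain that the emilins carry, had the lowest mean level per kb of the members in WT. Its libraries had 1.81, 1.53 and 1.31 normalized CPM in WT, 2.97, 2.703 and 3.52 in Epha2-Q722, 3.78, 3.599 and 4.13 in Epha2-indel722, and 2.61, 3.37 and 4.09 in Epha2-null, from 23 to 80 reads. Every mutant library lay above every WT library. It met the listing rule through 6 mutant libraries over 3 CPM, with 0 such WT libraries, so being listed required higher levels in mutants. The log2 differences from WT, 1.004 ± 0.21, 1.32 ± 0.20 and 1.13 ± 0.21 in the same order, are therefore a description with no test. No difference between mutants passed.

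Col1a2, Col5a1, Col9a1 and Col27a1 passed in no genotype against WT, and neither did the interstitial Fn1 and Bgn. Col1a2, a chain of fibrillar collagen I, had 5.11 to 5.87 normalized CPM in WT and 6.31 to 8.73 in Epha2-Q722 libraries (log2 fold change of 0.43 ± 0.13, adjusted p = 0.059), and was lower in Epha2-null than in Epha2-Q722 (-0.61 ± 0.13, adjusted p = 0.0022). With Epha2-Q722 it passed without Epha2-Q722 replicate 2 (adjusted p = 0.032) and under library totals (adjusted p = 0.012). With Epha2-null, Col5a1, a chain of fibrillar collagen V, passed as lower without WT replicate 1 or 3 (adjusted p of 0.048 and 0.030), and Bgn, the proteoglycan biglycan, without Epha2-null replicate 3 (adjusted p = 0.029). Pdgfra, the 1 of 10 fibroblast and mesenchyme markers that was listed, read 51.3 to 57.5 in WT, 69.5 to 81.3 for Epha2-Q722, 50.5 to 57.8 for Epha2-indel722 and 56.3 to 57.1 for Epha2-null libraries. It was highest in Epha2-Q722, where the means of Lama1, Fbn1 and Col1a2 were also highest and those of Col6a3, Emilin1, Emilin2 and Adamts4 lowest. No other marker of its list was in the count table, so Pdgfra alone does not show which cells carried it. The part of Pdgfra in these levels was not tested. Fn1, fibronectin, read 2.18, 4.12 and 2.04 in the WT libraries, with replicate 2 the highest. Without that library Fn1 passed as higher with Epha2-Q722 and Epha2-indel722 (adjusted p of 0.022 and 0.017).

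Of 8 integrin chains, 0 rose and 1 fell with Epha2-Q722, 1 rose and 4 fell with Epha2-indel722, and 2 rose and 2 fell with Epha2-null. Among the 4 falls with Epha2-indel722 are Itga5 and Itga9, listed only through other genotypes, which favors a fall there. Of all genes, 2.75%, 6.73% and 4.98% were higher and 3.62%, 6.37% and 6.22% lower in the same order. Under library totals the integrin numbers were 1 and 0, 1 and 1, and 4 and 0, so directions of the group depended on the scaling. Itga2, the alpha chain of a collagen receptor, fell in all 3 genotypes. It had 22.96, 21.5 and 19.99 normalized CPM in WT, 17.1, 17.6 and 16.8 in Epha2-Q722, 13.7, 14.6 and 12.2 in Epha2-indel722, and 17.4, 16.1 and 16.1 in Epha2-null libraries. All mutant libraries were below WT, and Epha2-indel722 lowest. Its fall measured -0.32 ± 0.08 (adjusted p = 0.019), -0.66 ± 0.08 (adjusted p = 6.5e-06) and -0.37 ± 0.08 (adjusted p = 0.0038) on the log2 scale. Epha2-indel722 was below Epha2-Q722 (-0.34 ± 0.08, adjusted p = 0.0084) and Epha2-null (-0.29 ± 0.09, adjusted p = 0.032). The first was lost without Epha2-indel722 replicate 3 (adjusted p = 0.052), and the second without Epha2-indel722 replicate 1 or 3 or Epha2-null replicate 1 or 2 or with DESeq2 (adjusted p of 0.059 to 0.15). Under library totals the Epha2-Q722 and Epha2-null values were -0.17 and -0.11 and did not pass (adjusted p of 0.22 and 0.34), and the Epha2-Q722 call was lost without Epha2-Q722 replicate 1 or WT replicate 1 or 2 (adjusted p of 0.050 to 0.10).

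The laminin receptor chains Itga3 and Itga6 went opposite ways in Epha2-null lenses. Itga3 had 38.6, 43.1 and 35.8 normalized CPM in WT, 42.6, 43.6 and 34.6 in Epha2-Q722, 34.5, 35.1 and 34.3 in Epha2-indel722, and 29.05, 27.6 and 32.03 in Epha2-null libraries. Itga6, the main laminin receptor chain of lens cells, had 154, 148 and 154 in WT, 138, 143 and 149 in Epha2-Q722, 158, 146 and 147 in Epha2-indel722, and 161, 175 and 201 in Epha2-null. Epha2-null libraries lay below WT for Itga3 and above WT for Itga6. Itga3 fell (log2 fold change of -0.41 ± 0.09, adjusted p = 0.0028) and Itga6 rose (0.23 ± 0.07, adjusted p = 0.026). The Itga6 call was lost without any 1 WT library or Epha2-null replicate 2 or 3 (adjusted p of 0.055 to 0.17) and in the exact test (adjusted p = 0.087), and that of Itga3 under library totals (adjusted p = 0.21). Their beta chain partner Itgb1 had 178 to 189 normalized CPM in the 12 libraries and passed in no genotype. With Epha2-null its log2 fold change was -0.02 ± 0.05 (adjusted p = 0.89), and under library totals 0.25, which passed (adjusted p = 0.0076).

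Itgb5, which pairs with integrin alpha v, rose in Epha2-indel722 and Epha2-null lenses. It was read at 156, 172 and 173 normalized CPM in WT, 168, 189.7 and 179 in Epha2-Q722, 215, 201 and 209.7 in Epha2-indel722, and 195, 194 and 203 in Epha2-null libraries. Both genotypes lay above WT, while Epha2-Q722 overlapped it. Log2 fold changes were 0.32 ± 0.06 (adjusted p = 0.00071) and 0.24 ± 0.06 (adjusted p = 0.011), the latter lost without WT replicate 1 (adjusted p = 0.12). Itgb8, another alpha v partner and an activator of latent TGF-beta, had 6.25, 4.71 and 4.997 in WT, 3.56, 4.004 and 4.19 in Epha2-Q722, 3.49, 3.85 and 3.56 in Epha2-indel722, and 6.13, 6.22 and 5.47 in Epha2-null libraries. Both edited genotypes were below WT and Epha2-null, and the fall passed with Epha2-indel722 (-0.53 ± 0.14, adjusted p = 0.011), while Epha2-Q722 had -0.42 ± 0.14 (adjusted p = 0.074). The Itgb8 call was lost without Epha2-indel722 replicate 1 or WT replicate 1 (adjusted p of 0.051 to 0.077) and under library totals (adjusted p = 0.061).

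Itga5, the fibronectin receptor chain, and Itga9, a receptor chain for tenascin and other ligands, were low transcripts with 0 Epha2-indel722 libraries over 3 CPM. They were listed only through 8 and 7 libraries of the other genotypes, which favors a lower value in Epha2-indel722. Their log2 differences from WT there are therefore a description with no test, although both are counted among members past it. Itga5 read 4.22, 4.18 and 2.67 normalized CPM in WT and 2.31, 2.76 and 2.35 in Epha2-indel722, where the libraries overlapped (log2 difference of -0.56 ± 0.18). Itga9 read 4.14, 4.41 and 3.58 in WT and 2.69, 2.37 and 2.76 in Epha2-indel722 (-0.63 ± 0.21). In the other mutants Itga5 had 2.95 to 4.202 and Itga9 1.73 to 3.88. Both calls were lost with DESeq2 (adjusted p of 0.083 and 0.058) and under library totals (adjusted p of 0.12 and 0.093). They were also lost without most single libraries, all but WT replicate 3 for Itga5 (adjusted p of 0.055 to 0.19) and each of the 6 for Itga9 (adjusted p of 0.060 to 0.17). Itgb1bp1 fell with Epha2-Q722 (-0.43 ± 0.11, adjusted p = 0.019), from 12.9, 10.1 and 10.96 in WT to 7.76, 8.51 and 8.63, with 9.01, 9.71 and 9.303 in Epha2-indel722 and 8.45, 8.44 and 10.54 in Epha2-null. It passed as lower with Epha2-null without Epha2-null replicate 3 or WT replicate 2 (adjusted p of 0.022 and 0.042). The Epha2-Q722 call was lost without Epha2-Q722 replicate 1 or WT replicate 1 (adjusted p of 0.080 to 0.12) and under library totals (adjusted p = 0.11). Its exons overlap those of Asap2 and Cpsf3 on the other strand, and the strand setting of the counting is not given in the sources used here.

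Among 12 proteases and inhibitors, 1 fell with Epha2-Q722, 2 rose and 2 fell with Epha2-indel722, and 3 rose and 2 fell in Epha2-null lenses, where 6.37%, 13.1% and 11.2% of all genes passed. Under library totals 1, 5 and 7 were higher and 1 lower in each genotype. Adamtsl4 (chr3:95676201-95687917, minus strand) binds fibrillin microfibrils, and its human gene is mutated in isolated displacement of the lens. Its libraries had 30.04, 36.8 and 28.3 normalized CPM in WT, 29.996, 33.04 and 30.6 in Epha2-Q722, 20.3, 19.1 and 19.4 in Epha2-indel722, and 22.1, 20.4 and 17.3 in Epha2-null. Epha2-Q722 libraries lay within the WT range, and those of the other mutants well below it. In log2 units, Adamtsl4 had -0.02 ± 0.09 (adjusted p = 0.93) with Epha2-Q722, -0.70 ± 0.09 (adjusted p = 1.9e-05) with Epha2-indel722 and -0.67 ± 0.09 (adjusted p = 3.9e-05) with Epha2-null. Against Epha2-Q722, Epha2-indel722 (-0.67 ± 0.09, adjusted p = 2.8e-05) and Epha2-null (-0.65 ± 0.09, adjusted p = 3.5e-05) were lower too.

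Adamts18, the most abundant Adamts member and a gene of inherited eye disorders in humans, fell in the same genotypes by less. It was read at 150.5, 151.4 and 147 normalized CPM in WT, 169.6, 161 and 160.01 in Epha2-Q722, 117, 122 and 136 in Epha2-indel722, and 118, 119.6 and 130.1 in Epha2-null libraries. Epha2-indel722 and Epha2-null libraries were all below WT, and Epha2-Q722 libraries all above it. It fell in Epha2-indel722 (log2 fold change of -0.26 ± 0.06, adjusted p = 0.0058) and Epha2-null (-0.29 ± 0.06, adjusted p = 0.0027), and had 0.13 ± 0.06 (adjusted p = 0.27) with Epha2-Q722. Both calls were lost under library totals (-0.10 and -0.02, adjusted p of 0.32 and 0.81), and the first without Epha2-indel722 replicate 1 (adjusted p = 0.0505).

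Mmp14, a membrane-bound collagenase, and Timp2, which inhibits it and also docks pro-MMP2 to it, rose in Epha2-indel722 and Epha2-null lenses. Mmp14 had 8.96, 10.9 and 11.02 normalized CPM in WT, 12.3, 10.9 and 11.5 in Epha2-Q722, 13.03, 14.2 and 16.1 in Epha2-indel722, and 13.4, 14.2 and 12.4 in Epha2-null libraries. Timp2 had 82.2, 83.8 and 83.1 in WT, 91.8, 86.6 and 81.6 in Epha2-Q722, 111, 97.9 and 109 in Epha2-indel722, and 90.8, 99.5 and 106 in Epha2-null. For both genes the Epha2-indel722 and Epha2-null libraries lay above WT and Epha2-Q722 overlapped it. With Epha2-indel722, the log2 fold change was 0.47 ± 0.10 (adjusted p = 0.0027) for Mmp14 and 0.35 ± 0.07 (adjusted p = 0.00081) for Timp2. With Epha2-null it was 0.37 ± 0.10 (adjusted p = 0.022) and 0.25 ± 0.07 (adjusted p = 0.016). The Epha2-null call of Mmp14 was lost without WT replicate 1 or Epha2-null replicate 1 or 2 (adjusted p of 0.057 to 0.14), and that of Timp2 without WT replicate 1 or 3 or Epha2-null replicate 2 or 3 (adjusted p of 0.061 to 0.078). The ratio of Timp2 to Mmp14 per kb was 11.5 to 14.04 in WT and 10.3 to 12.99 in mutant libraries, and each mutant overlapped WT.

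Timp4, another inhibitor of metalloproteinases, had 11.97, 12.8 and 11.6 normalized CPM in WT, 13.4, 14.7 and 11.6 in Epha2-Q722, 13.4, 14.7 and 16.9 in Epha2-indel722, and 16.5, 14.3 and 16.1 in Epha2-null libraries. Epha2-indel722 and Epha2-null libraries lay above WT. It rose with Epha2-null (log2 fold change of 0.36 ± 0.10, adjusted p = 0.024) and had 0.30 ± 0.10 (adjusted p = 0.058) with Epha2-indel722. The latter passed in a fit of the 2 groups only (adjusted p = 0.032), in the exact test (adjusted p = 0.029), with the coding-length trend removed (adjusted p = 0.038), under library totals (adjusted p = 0.0022) and without Epha2-indel722 replicate 1 (adjusted p = 0.036). The Epha2-null call was lost without WT replicate 1 or 3 or Epha2-null replicate 1 or 3 (adjusted p of 0.063 to 0.12), and exons of Timp4 overlap those of Syn2 on the other strand. Adamts4, an aggrecanase, fell in Epha2-Q722 from 21.9, 24.3 and 20.7 to 13.2, 18.8 and 11.5 (-0.61 ± 0.16, adjusted p = 0.041), with 19.3, 17.3 and 22.1 in Epha2-indel722 and 24.6, 21.6 and 26.1 in Epha2-null, which overlapped WT. Epha2-Q722 libraries lay below WT, yet the call was lost without any 1 WT library, without Epha2-Q722 replicate 1 or 3, in a fit of the 2 groups only or with the coding-length trend removed (adjusted p of 0.057 to 0.13). Adamts5, Adamts6, Adamts10, Adamts17, Mmp15 and Timp3 passed in no genotype against WT in the quasi-likelihood fit, and of these Adamts10 and Adamts5 were higher in Epha2-indel722 than in Epha2-Q722 (0.50 ± 0.16, adjusted p = 0.040, and 0.45 ± 0.12, adjusted p = 0.015). The call of Adamts10 was lost with DESeq2 and without any 1 of 5 of the 6 libraries, Epha2-Q722 replicate 1 being the exception (adjusted p of 0.073 to 0.15), and that of Adamts5 without Epha2-Q722 replicate 1 or 2 or Epha2-indel722 replicate 2 or 3 (adjusted p of 0.050 to 0.099). Against WT, Adamts10 passed with Epha2-indel722 without WT replicate 1 (adjusted p = 0.040). Human ADAMTS10 and ADAMTS17 are genes of Weill-Marchesani syndromes, in which the lens is small, round and displaced.

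Between mutants, the share of matrix genes past the test was also set beside that of all genes. For Epha2-indel722 against Epha2-Q722, 19 of 52 passed (9 higher and 10 lower, or 36.5%, against 12.4% of all genes, 6.57% higher and 5.88% lower). For Epha2-null against Epha2-Q722, 17 passed (6 higher and 11 lower, 32.7% against 17%, 7.95% higher and 9.02% lower). For Epha2-indel722 against Epha2-null, 7 passed (3 higher and 4 lower, 13.5% against 9.85%, 5.51% higher and 4.35% lower). At least 2-fold were 1, 3 and 1 of these, against 0.922%, 1.21% and 0.98% of all genes, and libraries did not overlap for 26, 28 and 16 members, against 29%, 30.9% and 27.7%. The third count was 4 without Epha2-indel722 replicate 2. The 2-fold counts were 2 for Epha2-indel722 against Epha2-Q722 without Epha2-Q722 replicate 3 and 2 for Epha2-indel722 against Epha2-null without Epha2-indel722 replicate 3. Without the 5 members and other genes that had a genotype at 0 libraries over 3 CPM, 17, 16 and 7 of 47 members passed (36.2%, 34% and 14.9%, against 12%, 16.6% and 9.49% of genes).

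Of the 18 capsule genes, 6 were lower and 1 higher in Epha2-indel722 than in Epha2-Q722, 6 lower and 0 higher in Epha2-null than in Epha2-Q722, and 2 higher and 0 lower in Epha2-indel722 than in Epha2-null. Among those lower in both comparisons with Epha2-Q722 were Lama1, Lamb1, Lamc1 and Nid1, chains of laminin and its linker. Nid1 for Epha2-indel722 lost its call without any 1 of the 6 libraries (adjusted p of 0.053 to 0.12), and under library totals Nid1 lost it in both comparisons (adjusted p of 0.22 and 0.12). Lamb2 was higher in Epha2-indel722 (0.66 ± 0.10, adjusted p = 6.7e-05) and lower in Epha2-null (-0.54 ± 0.11, adjusted p = 0.0015) than in Epha2-Q722. Summed levels of the 10 epithelial markers were 543 to 603 normalized CPM in WT, 588 to 644 for Epha2-Q722, 569.9 to 588 for Epha2-indel722 and 554 to 570.0 for Epha2-null libraries, with the highest library in Epha2-Q722. Sums of the 10 fiber markers were 40970.2 to 44382 in WT, 38257 to 41117 for Epha2-Q722, 36222 to 40901 for Epha2-indel722 and 35933 to 36982 for Epha2-null libraries, with Epha2-indel722 and Epha2-null wholly below WT. Single markers went different ways. Bfsp2 had 3297 to 3468 in WT and 2352, 634 and 940 in Epha2-indel722 libraries, and Lim2 had 3718 to 4094 and 4155 to 4481. In Epha2-null libraries they had 2845 to 2935 and 2976 to 3008. Of the epithelial markers, Cdh1 had 49.5 to 60.4 in WT and 84.6 to 91.5 in Epha2-indel722 libraries, while Gja1 had 44.1 to 51.6 and 31.1 to 40.3. The part of either list in the differences, between mutants or against WT, was not tested.

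Other matrix genes, outside the symbols above, were taken from 4 lists, to be read against the 6.37%, 13.1% and 11.2% of all genes that passed with Epha2-Q722, Epha2-indel722 and Epha2-null. Of 23 measured collagen-modifying enzymes, 2 rose and 2 fell with Epha2-Q722, the same numbers with Epha2-null, and 2 against 3 with Epha2-indel722. Pcolce, the enhancer of procollagen C-proteinase, fell in all 3 genotypes, from 33.9 to 35.96 normalized CPM in WT to 25.4 to 27.5, 20.6 to 22.2 and 26.6 to 27.8 (log2 fold changes of -0.42 ± 0.07, -0.71 ± 0.07 and -0.38 ± 0.07, adjusted p of 0.00015, 7.0e-08 and 0.00034), and the call for Epha2-null was lost under library totals (adjusted p = 0.24). Of 18 measured matricellular and microfibril genes, 2 fell and 0 rose with Epha2-Q722, while Epha2-indel722 and Epha2-null each had 2 rises and 3 falls. Mfap4, a microfibril-associated glycoprotein, fell in all 3 (-0.28, -0.24 and -0.23, adjusted p of 0.014, 0.020 and 0.035), calls that were all lost under library totals (log2 fold changes of -0.13, -0.08 and 0.04) and without WT replicate 3 (adjusted p of 0.089, 0.089 and 0.13). It was also lost without Epha2-Q722 replicate 1 or 3, Epha2-indel722 replicate 1 or 2, or, for Epha2-null, Epha2-null replicate 1 or 3 or WT replicate 1 (adjusted p of 0.054 to 0.13), and for Epha2-null with DESeq2 (adjusted p = 0.053). Of 9 measured proteoglycans, 1 fell with Epha2-Q722, 3 rose with Epha2-indel722, and 2 rose and 2 fell with Epha2-null. The syndecans Sdc1 and Sdc3, cell surface heparan sulfate proteoglycans, went opposite ways in Epha2-null lenses (-0.25 and 0.49, adjusted p of 0.021 and 6.1e-05). The call of Sdc1 was lost without Epha2-null replicate 1 or 2 or WT replicate 1 (adjusted p of 0.079 to 0.095), and under library totals its sign turned (log2 fold change of 0.02). Of 22 measured matrix receptor and adhesion plaque genes, 1 rose with Epha2-Q722, 1 rose and 4 fell with Epha2-indel722, and 1, the tetraspanin and integrin partner Cd151, rose with Epha2-null (0.49, adjusted p = 2.4e-05), so the shares with Epha2-Q722 and Epha2-null lay below those of all genes. Median log2 fold changes of these 4 lists lay between -0.08 and 0.11.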

How the data were processed

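RNA of P7 lenses from the 4 genotypes was sequenced in 3 libraries each of 6 pooled lenses, and libraries were grouped by their sample titles. The authors aligned paired reads to mm10 with STAR 2.5.3a, used SAMtools 1.4.1, obtained gene counts from HTSeq 0.11.0, and deposited raw counts for 8676 genes. The strand setting and the annotation are not given in the sources used here. Beside the counts, the deposited table holds CPM per library, which the authors computed and which were used only to find the listing rule. It also holds the authors' own log2 fold changes, average log2 CPM, p-values and FDR from edgeR, none of which were used.

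The deposited counts were fitted with edgeR 4.0.16 (R 4.3.3), with TMM factors, robust quasi-likelihood dispersion and genotype as the only term over all 12 libraries. P-values were adjusted over 8676 genes by the Benjamini-Hochberg method, and they measure the spread between libraries, which may in part be technical. Fold changes used a prior count of 0.125. On counts simulated for 8676 genes, the fit recovered 66 of 67 genes changed by 2-fold for Epha2-Q722, with 14 false calls. It recovered 67 of 67 for Epha2-indel722 and for Epha2-null, with 8 and 9 false calls. The simulated counts held no trend over coding length, so recovery of long members under that trend was not measured. Levels between genes were compared per kb of exon, with GENCODE positions on mm10 and promoters from RefSeq GRCm38.p6. Sequencing depth limited the rarest members, down to 23 reads for a library. Ratios within a library were set against WT with two-sided exact permutation tests. The alternatives were library totals, DESeq2 1.42.0, the exact test, fits of 2 groups, a replicate block, a minimum of 10 CPM in 3 libraries, a prior count of 2 and each library left out, and removal of the coding-length trend and counts without genes that had 0 libraries over 3 CPM in a genotype were added after the data were seen. Members, roles and lists were chosen with earlier results of these data known. The counts cover all 52 members, 1 of which is not reported here by itself, and described by gene were members past the test against WT, those past it by 2-fold between mutants, and the capsule genes.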

Additional observations from a re-analysis of the deposited data

How the results depend on the processing

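For 95 calls by gene, against WT or between mutants, directions were kept under all alternatives run except library totals. Of 743 values under alternatives other than leaving out a library, 694 stayed past the test, 46 did not, and 3 reversed, all with Epha2-null under library totals: Nid1 (0.0068), Mfap4 (0.042) and Sdc1 (0.018). Emilin3 (0.24) and Itgb1 (0.25), near 0 and not called with Epha2-null in the TMM fit, passed as higher there. Of 570 values with a library left out, 452 stayed past the test and 0 reversed. In 46 of the 95, the call was kept under every alternative run, among them Emilin2 in all genotypes, Emilin1 with Epha2-null, Col6a3 with Epha2-Q722, Agrn in both edited genotypes, Lamb2 with Epha2-indel722 and Adamtsl4 with Epha2-indel722 and Epha2-null.

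Against WT, the number of members past the test with Epha2-null was 23 under library totals, and with Epha2-indel722 it was 10 with a minimum of 10 CPM in 3 libraries, where 35 of the 52 were tested. For Epha2-indel722 against Epha2-null it was 12 in a fit of the 2 groups only and 11 in the exact test. Members past 2-fold numbered 2 with Epha2-Q722 and 0 with Epha2-indel722 at that minimum, 0 with Epha2-indel722 without members that had 0 libraries over 3 CPM in a genotype, and under library totals 3 with Epha2-indel722 and 2 for Epha2-indel722 against Epha2-null. With 1 library left out, members past the test ranged from 7 to 12 with Epha2-Q722, 11 to 16 with Epha2-indel722, 10 to 16 with Epha2-null, 13 to 17 for Epha2-indel722 against Epha2-Q722, 17 to 20 for Epha2-null against Epha2-Q722 and 4 to 8 for Epha2-indel722 against Epha2-null. Those past 2-fold ranged from 2 to 4, 1 to 3, 1 to 4, 1 to 2, 2 to 3 and 1 to 2 in the same order. The cause of these shifts was not tested.

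Same-numbered libraries deviated together in 1 of 18 pairs (correlation over 0.1, range -0.15 to 0.22), so the numbers were not taken to pair the samples. With the replicate block, 10, 15 and 14 members passed against WT and 19, 17 and 7 between mutants, and the calls of Adamts4 with Epha2-Q722 (adjusted p = 0.088) and Col4a4 with Epha2-indel722 (adjusted p = 0.058) were lost. With 3 libraries a group, low members such as Itga5, Itga9, Fbn1 and Col26a1 rest on few reads, and overlapping genes on opposite strands could share them.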
